A study of Mus musculus with 8 samples.

Results

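Nuclear lamina and inner membrane proteins form the inner lining of the nucleus, and the transcripts of 9 of their genes were followed here in 3 mouse cell lines. The genes are Lmnb1, Lmnb2, Lmna, Lbr, Emd, Tmpo, Sun1, Sun2 and Banf1. They were chosen by name, and a row of the array table was taken when its RefSeq transcript mapped to one of these symbols. This gave 16 probe sets, and because probe sets with identical values were counted once, 12 distinct rows, of 22523 probe sets and 18172 distinct rows in all.

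The study asked which transcripts go with asymmetric self-renewal, a division pattern in which a cycling cell keeps producing a daughter that stops cycling. It used p53-null mouse fibroblasts that were engineered so that zinc switches p53 on. Total RNA of independent preparations was hybridised to 1 Affymetrix mouse array each. Ind-8 cells (ASYM, 3 arrays) express wild-type mouse p53 from a cDNA behind a metallothionein promoter, and renew asymmetrically with zinc. Con-3 cells (SYM, 3 arrays) lack p53 and renew symmetrically, and the records call them a vector control in 1 place and a congenic parental line in another. The tI-3 line (p53SYM, 2 arrays) was derived from Ind-8; it still makes p53 with zinc, carries a constitutive IMPDH II transgene and renews symmetrically. All 3 lines were kept for 48 h in medium with 65 µM ZnCl2 and with 5 µg/ml puromycin, and the tI-3 medium also held G418. Each state is 1 cloned line, so a difference between states cannot be told apart from a difference between lines.

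The lamina is a meshwork of intermediate filament proteins under the inner nuclear membrane. B-type lamins stay farnesylated and membrane-bound and are made in nearly all cells, whereas A-type lamins are splice products of a single gene and are abundant in mesenchymal cells such as fibroblasts. Integral membrane proteins with lamin-binding or LEM domains tie the meshwork to chromatin, SUN proteins link it to the cytoskeleton, and a low level of lamin B1 is widely used as a marker of senescent cells.

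The arrays were compared first. Median log2 values lay between 6.12 and 6.19, and Pearson's r over all probe sets, none of which is a replicate, was 0.994 to 0.996 for pairs of arrays of the same line. The 25th and 75th percentiles were 4.39 and 8.17 and 4.43 and 8.12 on the tI-3 arrays, a narrower spread than on the others (4.19 to 4.38 and 8.26 to 8.33). The actin control, a sign of RNA quality, also set the lines apart: its 3′ minus 5′ log2 value was 0.14 to 0.19 in Ind-8, 0.11 to 0.14 in Con-3 and 0.06 to 0.07 in tI-3, whereas that of Gapdh overlapped. Ind-8 and tI-3 are thus at opposite ends of it, as they are for Lmnb1, and whether RNA quality enters the differences between lines was not tested. Con-3 replicate 3 stood apart in its 18S ribosomal RNA control, which averaged 10.63 on the log2 scale there and 5.58 to 6.46 on the other arrays. The 18 hybridization-control probe sets, which report RNA added during hybridization, averaged 10.44 on Con-3 replicate 3 and 10.24 and 10.46 on the tI-3 arrays, against 9.88 to 10.00 on the other 5. The limma fit was therefore repeated with this level as a block, and calls for tI-3 that the block ended are given below by gene or by count; in that fit Con-3 replicate 3 alone ties the tI-3 arrays to the rest. The difference of Lmnb1 and Lmna within arrays was not refitted with it.

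The labels were checked against genes they bear on. Cdkn1a, the p21 inhibitor of cyclin-dependent kinases and a p53 target, read 9.70, 9.70 and 9.59 in Ind-8, 5.73, 5.81 and 6.03 in Con-3 and 7.55 and 7.33 in tI-3. Mdm2, the p53 ubiquitin ligase and another target, read 10.79, 11.19 and 10.71 in Ind-8, 9.02, 8.79 and 8.87 in Con-3 and 9.67 and 9.56 in tI-3. Both were therefore highest in Ind-8 and lowest in Con-3, with no overlap. Trp53 itself was 0.53 higher in Ind-8 than in Con-3 (adjusted p = 0.00192) and 0.39 higher in tI-3 than in Con-3 (adjusted p = 0.0144), a call lost with the block (0.38, adjusted p = 0.101) and without tI-3 replicate 2 (0.34, adjusted p = 0.109). Impdh2, the enzyme that the tI-3 transgene supplies, averaged 12.19 in Ind-8, 12.53 in Con-3 and 12.36 in tI-3, which put Ind-8 below Con-3 (−0.34, adjusted p = 0.0108, kept in 16 of 16 alternatives). Its probe set was not called higher in tI-3 than in Con-3, nor than in Ind-8 (Ind-8 against tI-3 −0.17, adjusted p = 0.163). Whether it detects the transgene was not tested. The zinc-binding metallothionein genes Mt1 and Mt2 read between 12.94 and 13.95 on all 8 arrays. Between tI-3 and Con-3 the Mt2 level differed by −0.39 (adjusted p = 0.0248), and the other differences of these genes did not pass the test. This Mt2 call was kept in 12 of 16 alternatives and lost with the block (−0.32, adjusted p = 0.198), after quantile normalisation (−0.18, adjusted p = 0.253) and without Con-3 replicate 2 (0.0867) or tI-3 replicate 2 (0.217). Of 10 fibroblast markers, 9 lay above the 25th percentile of mean level (log2 of 4.30) on all 8 arrays, among them Vim and Fn1, and 7 lay above the 75th percentile. None of the 17 epithelial, endothelial, blood, muscle and neural markers did the latter, and the highest of them, Kdr, lay at percentile 49.8. Levels of some markers differed between lines. Col3a1 read 6.255 and 6.511 in tI-3 and 7.911 to 9.366 on the other arrays. Postn read 6.424 to 7.16 in Con-3 and 4.739 to 5.555 on the others. Kdr rose in the order Ind-8, Con-3, tI-3 with no overlap, the order of Lmnb1. Whether these marker differences bear on the members was not tested.

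Differences between lines were taken from limma, fitted to all 8 arrays, and a row was called at a Benjamini-Hochberg adjusted p under 0.05 over all 22523 probe sets. These p-values measure the spread between the preparations of each line. In Ind-8 against Con-3, 9 of the 12 rows were called, 2 higher and 7 lower, whereas 10.9% of all probe sets were called higher and 11.0% lower. In Ind-8 against tI-3, 8 rows were called, 3 higher and 5 lower, beside 15.6% and 15.5% of all probe sets. In tI-3 against Con-3, 8 rows were called, 3 higher and 5 lower, beside 10.2% and 15.1% of all probe sets. Lmna, Tmpo and Banf1 had more than 1 row and so weigh more in these counts and in the medians below. By gene, 1 of 9 was called higher and 5 lower in Ind-8 against Con-3. The gene counts were 2 higher and 4 lower in Ind-8 against tI-3, and 3 higher and 4 lower in tI-3 against Con-3. The median log2 difference over the 12 rows was −0.56, −0.25 and 0.00 in these comparisons, and over all probe sets it was −0.06, −0.06 and 0.04. The comparisons share arrays and are not independent of each other.

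The 9 calls of Ind-8 against Con-3 were all kept in the same direction under each of the 16 alternative settings, including the fit without Con-3 replicate 3. For this comparison the 16 are not all different, since the hybridization-control block equals leaving out Con-3 replicate 3, and leaving out either tI-3 array equals fitting the 2 lines alone. With the hybridization-control block, the calls fell from 8 to 3 in Ind-8 against tI-3, where Lmnb1 and both Banf1 rows kept theirs, and from 8 to 4 in tI-3 against Con-3, where Lbr, Emd, Sun2 and the alpha row of Tmpo kept theirs. Over all probe sets the calls fell with this block from 7009 to 708 and from 5715 to 3066, so the loss was not particular to the members. Leaving out either tI-3 array also lowered the number of calls in each of these comparisons, both among the members and over all probe sets.

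The rank product test, which the study used and which ranks probe sets by size of change, was also run at a percent false positive (pfp) under 0.05. Of the members it called Lmnb1 alone, lower in Ind-8 than in Con-3 (pfp = 0.030) and lower in Ind-8 than in tI-3 (pfp = 0.012). In all it called 2.22% of probe sets higher and 1.43% lower in Ind-8 against Con-3, 1.59% and 0.435% in Ind-8 against tI-3, and 0.635% and 1.67% in tI-3 against Con-3. In the last comparison the lowest pfp of a member was 0.28, for Emd, although 5 rows had an unadjusted rank product p under 0.05. Both Lmnb1 calls were lost at a pfp under 0.01. The call against Con-3 was also lost without any 1 of the Ind-8 and Con-3 arrays other than Ind-8 replicate 1, and that against tI-3 without either tI-3 array. Lmnb1 is on the list of down-regulated genes that the study selected on these arrays, so its pattern is not independent evidence for that list.

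**Figure D1:**
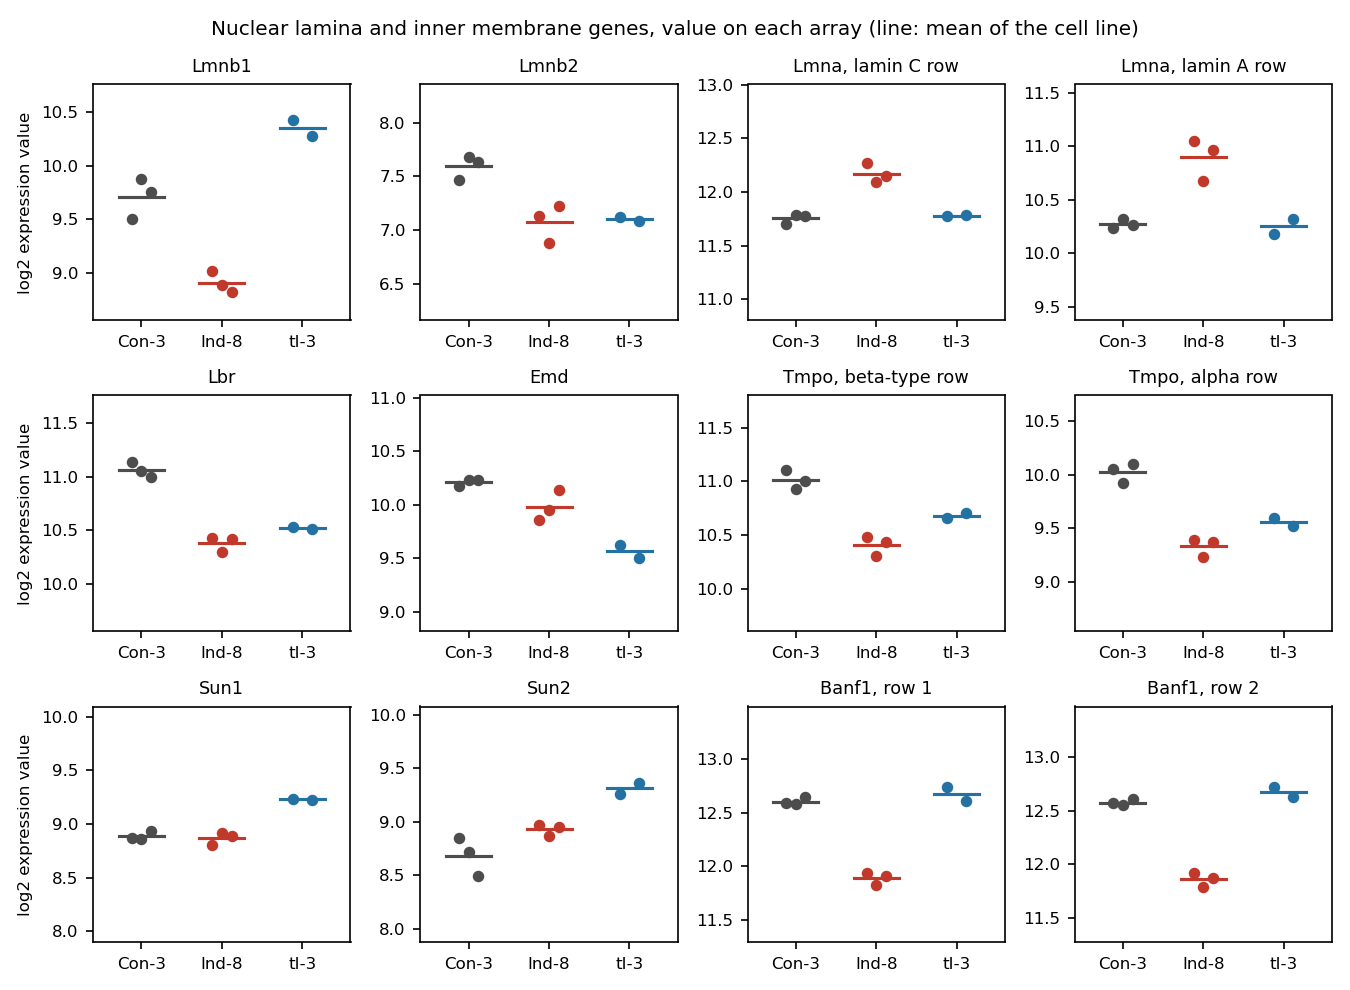
Value of each of the 12 distinct rows on each array, with the log2 expression value on the vertical axis, 1 point per array and a line at the mean of each cell line; every panel spans the same range of log2 units. Lmnb1 and both Banf1 rows were lowest in Ind-8, both Lmna rows were highest there, and Lbr, Lmnb2 and Tmpo were highest in Con-3.

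Lmnb1 encodes lamin B1. Its probe set read 9.02, 8.89 and 8.82 in Ind-8, 9.50, 9.87 and 9.75 in Con-3 and 10.43 and 10.27 in tI-3. The 3 lines did not overlap, and tI-3, not Con-3, was the highest. Against Con-3 the Ind-8 mean was 1.74-fold lower (log2 difference −0.80, SE 0.11, adjusted p = 0.000859), and against tI-3 it was 2.72-fold lower (−1.44, SE 0.13, adjusted p = 6e-05). In tI-3 the transcript was 1.56-fold higher than in Con-3 (0.64, SE 0.13, adjusted p = 0.00427). With the hybridization-control block that last difference was 0.60 and no longer passed (adjusted p = 0.0514), and in the other 15 alternatives it was called. Because these are bulk cultures, fewer cells that make a transcript and less transcript per cell cannot be told apart.

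Lmnb2 encodes lamin B2, the other B-type lamin. It read 7.13, 6.88 and 7.22 in Ind-8, 7.47, 7.68 and 7.63 in Con-3 and 7.12 and 7.09 in tI-3. Here Con-3 stood above both p53-expressing lines, which overlapped. The Ind-8 level was 1.43-fold lower than that of Con-3 (−0.52, SE 0.11, adjusted p = 0.00728), and the tI-3 level was 1.41-fold lower (−0.49, SE 0.12, adjusted p = 0.0136). Between Ind-8 and tI-3 the difference was −0.02, with a 95% confidence interval from −0.29 to 0.24. The tI-3 call was lost with the hybridization-control block (adjusted p = 0.0683), without Con-3 replicate 2 (0.0501) and without tI-3 replicate 1 (0.057) or 2 (0.0853), while the difference kept much of its size, at −0.53, −0.45, −0.51 and −0.48. The B-type pair therefore had different orders over the lines, Lmnb1 being highest and Lmnb2 low in tI-3.

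Lmna encodes the A-type lamins A and C, which had separate rows. The lamin A row (NM_001002011) read 11.05, 10.67 and 10.97 in Ind-8, 10.24, 10.32 and 10.26 in Con-3 and 10.18 and 10.33 in tI-3. The row shared by the lamin C and C2 transcripts (NM_019390 and NM_001111102) read 12.27, 12.09 and 12.15 in Ind-8, 11.70, 11.78 and 11.78 in Con-3 and 11.78 and 11.78 in tI-3. In both rows every Ind-8 array lay above every other array, and Con-3 and tI-3 overlapped. The lamin A row was 1.54-fold higher in Ind-8 than in Con-3 (0.62, SE 0.11, adjusted p = 0.00292) and 1.56-fold higher than in tI-3 (0.64, SE 0.12, adjusted p = 0.00411). The lamin C row was higher by 0.41 (SE 0.09, adjusted p = 0.00656) and 0.39 (SE 0.10, adjusted p = 0.0124).

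Both Lmna calls against tI-3 were lost with the hybridization-control block, at log2 differences of 0.62 (adjusted p = 0.15) for lamin A and 0.43 (adjusted p = 0.195) for lamin C. The lamin C call was also lost without tI-3 replicate 1 (adjusted p = 0.0536) or 2 (adjusted p = 0.0692). Between tI-3 and Con-3 the lamin A row differed by −0.02 (95% confidence interval −0.29 to 0.25) and the lamin C row by 0.02 (−0.19 to 0.23).

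**Figure D2:**
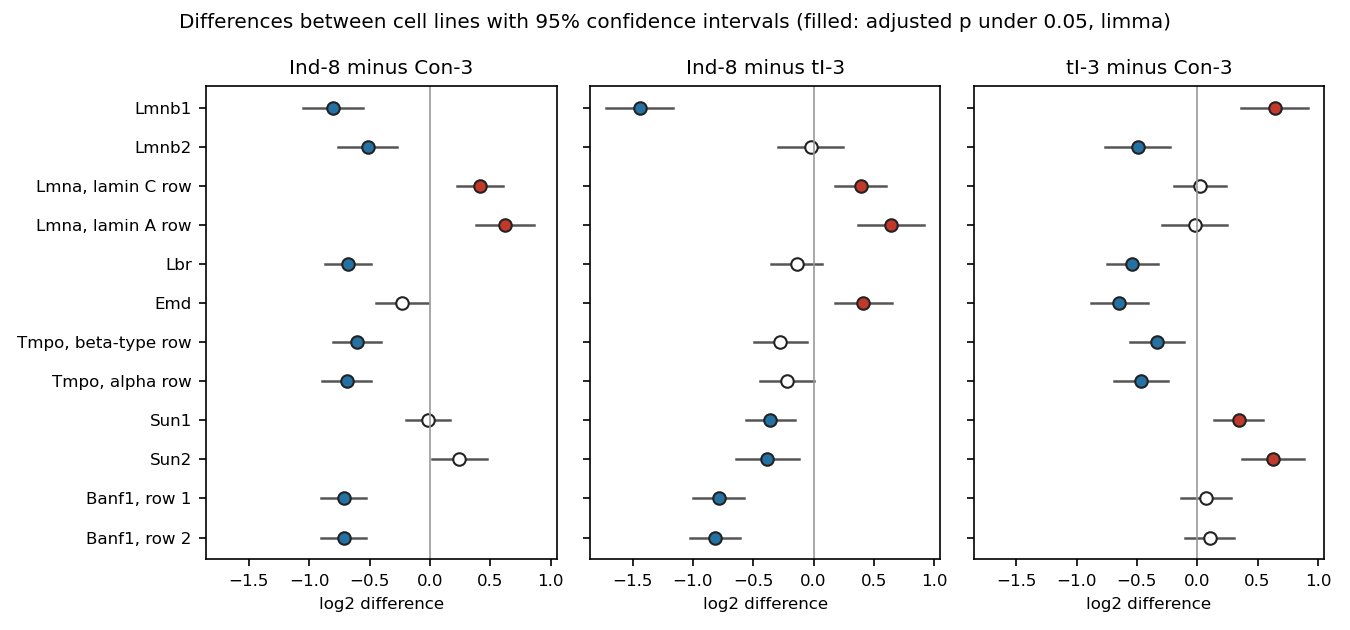
Log2 difference of each row in the 3 comparisons (horizontal axis, points) with its 95% confidence interval (bars); filled points have an adjusted p under 0.05 by limma. In Ind-8 against Con-3 the differences ran from −0.80 for Lmnb1 to 0.62 for the lamin A row of Lmna.

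The log2 difference of Lmnb1 and Lmna within each array had been set as a result before the value files were opened, with the place of Lmnb1 in the study's list known. Its size has no meaning as a ratio of molecules, since the probe sets differ, but its change between arrays does. With the lamin C row it was −3.25, −3.20 and −3.33 on the Ind-8 arrays, −2.20, −1.91 and −2.03 on the Con-3 arrays and −1.35 and −1.51 on the tI-3 arrays. The lines were fully apart, in the order Ind-8, Con-3, tI-3. The mean was −3.26 ± 0.07 (SD, n = 3) in Ind-8, −2.05 ± 0.15 (SD, n = 3) in Con-3 and −1.43 ± 0.11 (SD, n = 2) in tI-3. Lmnb1 relative to Lmna was thus 2.32-fold lower in Ind-8 than in Con-3 and 3.56-fold lower than in tI-3. An exact two-sided permutation test gave p = 0.10 for Ind-8 against Con-3 and p = 0.20 for each comparison with tI-3, the smallest values that these numbers of arrays allow, so no call at 0.05 was possible, and the test adds no evidence to that of the rows themselves. With the lamin A row, the change was −1.42 against Con-3 and −2.08 against tI-3.

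**Figure D3:**
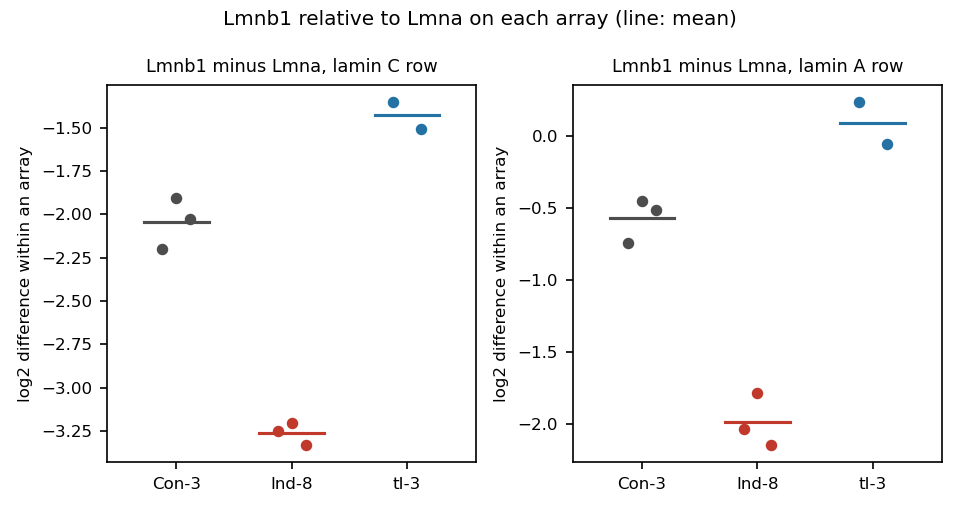
Log2 value of Lmnb1 minus that of Lmna on each array (vertical axis) by cell line, with the lamin C row on the left and the lamin A row on the right; lines are means. The Ind-8 arrays lay lowest in both panels, from −3.33 to −3.20 with the lamin C row.

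Lbr encodes the lamin B receptor, a membrane protein that binds B-type lamins and heterochromatin and also acts as a sterol reductase. It read 10.43, 10.30 and 10.42 in Ind-8, 11.14, 11.06 and 11.00 in Con-3 and 10.54 and 10.52 in tI-3. Con-3 was clearly the highest, and the tI-3 arrays lay just above the Ind-8 arrays. The level was 1.60-fold lower in Ind-8 than in Con-3 (−0.68, SE 0.09, adjusted p = 0.000497) and 1.45-fold lower in tI-3 than in Con-3 (−0.54, SE 0.10, adjusted p = 0.00255). All 16 alternatives kept both calls. Ind-8 and tI-3 differed by −0.14, with a 95% confidence interval from −0.35 to 0.07.

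Tmpo encodes the thymopoietin or LAP2 proteins, which carry a LEM domain, and its isoforms differ in whether they span the membrane. The row of the beta-type transcripts (NM_001080129 and 3 others with identical values), whose products include membrane proteins, read 10.48, 10.31 and 10.43 in Ind-8, 11.11, 10.93 and 11.00 in Con-3 and 10.66 and 10.70 in tI-3. The row of the alpha transcript (NM_011605), whose product is nucleoplasmic and binds A-type lamins, read 9.39, 9.24 and 9.38 in Ind-8, 10.05, 9.92 and 10.10 in Con-3 and 9.59 and 9.52 in tI-3. Both rows had the order Con-3, tI-3, Ind-8 with no overlap. The beta-type row was 0.61 lower in Ind-8 than in Con-3 (log2 difference −0.61, SE 0.09, adjusted p = 0.00113), and the alpha row differed by −0.69 (SE 0.09, adjusted p = 0.000625).

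The alpha row of Tmpo differed between tI-3 and Con-3 by −0.47 (adjusted p = 0.00717) and the beta-type row by −0.33 (adjusted p = 0.0343). The beta-type call was among the least stable, kept in 9 of 16 alternatives with adjusted p-values from 0.0166 to 0.177. It was lost without Con-3 replicate 1 (0.091) or 3 (0.0582), without tI-3 replicate 1 (0.134) or 2 (0.116), with the arrays quantile-normalised again (0.177), with the 2 compared lines alone (0.052) and with the hybridization-control block (0.171). Its difference was −0.20 after quantile normalisation, −0.32 with the block and between −0.29 and −0.35 in the others. The alpha call was lost only without tI-3 replicate 2 (adjusted p = 0.0609). Between Ind-8 and tI-3 neither row passed (−0.27, adjusted p = 0.0596, and −0.22, adjusted p = 0.119), although both did after quantile normalisation (adjusted p = 0.0148 and 0.0252), and the beta-type row also with a trend in the prior (0.035) and with the arrays centred on their medians (0.0462).

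Emd encodes emerin, another LEM-domain protein of the inner membrane. It read 9.85, 9.95 and 10.14 in Ind-8, 10.18, 10.23 and 10.23 in Con-3 and 9.63 and 9.50 in tI-3. Here tI-3 was lowest and Con-3 highest. The tI-3 level was 1.56-fold lower than that of Con-3 (−0.65, SE 0.11, adjusted p = 0.00178), a call kept in all 16 alternatives. Ind-8 was 1.33-fold higher than tI-3 (0.41, SE 0.11, adjusted p = 0.0165), and this call was lost with the hybridization-control block, where the difference was 0.44 (adjusted p = 0.234), with renewed quantile normalisation, where it fell to 0.29 (0.0728), and without tI-3 replicate 2, where it was 0.35 (0.123). Ind-8 and Con-3 differed by −0.23 and did not pass (adjusted p = 0.117).

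Banf1 encodes barrier-to-autointegration factor, a small chromatin protein that LEM-domain proteins bind. Its NM_011793 row read 11.94, 11.83 and 11.91 in Ind-8, 12.59, 12.58 and 12.64 in Con-3 and 12.74 and 12.61 in tI-3. The Ind-8 arrays lay below all others, and Con-3 and tI-3 overlapped. The level was 1.64-fold lower in Ind-8 than in Con-3 (−0.71, SE 0.08, adjusted p = 0.000318) and 1.72-fold lower than in tI-3 (−0.79, SE 0.09, adjusted p = 0.00034). The NM_001038231 row gave −0.71 and −0.82, and all 16 alternatives kept the 4 calls. tI-3 and Con-3 differed by 0.07 (95% confidence interval −0.14 to 0.28). In the main fit only Banf1 and Lmnb1 were called lower in Ind-8 than in both other lines, although the Ind-8 arrays of Lbr and of both Tmpo rows also lay below all others.

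Sun1 and Sun2 encode the inner membrane part of the bridges that join the lamina to nesprins and the cytoskeleton. Sun1 read 8.80, 8.92 and 8.89 in Ind-8, 8.87, 8.86 and 8.94 in Con-3 and 9.23 and 9.22 in tI-3. Sun2 read 8.97, 8.87 and 8.95 in Ind-8, 8.85, 8.72 and 8.49 in Con-3 and 9.26 and 9.36 in tI-3. Both were highest in tI-3, and Ind-8 and Con-3 overlapped for Sun1 but not for Sun2. The tI-3 level of Sun2 was 1.54-fold higher than that of Con-3 (0.63, SE 0.12, adjusted p = 0.00319) in a call that all 16 alternatives kept.

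For Sun1, tI-3 was 0.34 above Con-3 (SE 0.09, adjusted p = 0.02), and Ind-8 differed from tI-3 by −0.36 (SE 0.09, adjusted p = 0.015). These calls were lost with the hybridization-control block, at 0.29 (adjusted p = 0.164) and −0.28 (0.363), without tI-3 replicate 1 (0.0834 and 0.0629) and without tI-3 replicate 2 (0.0908 and 0.0764), and the first also without Con-3 replicate 2 (0.0654). For Sun2, Ind-8 differed from tI-3 by −0.38 (SE 0.12, adjusted p = 0.0309). Its call was kept in 9 of 16 alternatives and was lost without Ind-8 replicate 1 (0.0563), 2 (0.082) or 3 (0.0553), without tI-3 replicate 1 (0.0688) or 2 (0.177), and with the replicate number as a block (0.0537). With the hybridization-control block it was lost as well (0.0607), although the difference there was larger, at −0.67. In Ind-8 against Con-3 neither gene passed, at −0.02 for Sun1 and 0.24 for Sun2 (adjusted p = 0.908 and 0.127).

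Since Lbr, Lmnb2, Tmpo and Banf1 were all lower in Ind-8 than in Con-3, the 250 bases upstream of their transcript starts are shown. They come from a set of windows based on RefSeq, build GRCm38.p6, and are written 5′ to 3′ on the strand of the gene. The set used held windows for 8 of the 9 genes. It lacked Lmnb1, which was also lower in Ind-8 and which the RefSeq table of names does hold. Capitals mark matches on either strand to the CHR element of cell-cycle promoters (TTTGAA or TTCGAA), the CCAAT box, an E2F-like element (GCGGGAA or GCGCGAA) and the GC box (GGGCGG). The windows of Lbr (chr1:181842402-181842651), Lmnb2 (chr10:80918246-80918495) and Banf1 (chr19:5366877-5367126) adjoin the outer end of the gene. That of Tmpo (chr10:91171620-91171869) overlaps the outer ends of the gene or lies inside them. All 4 are on the minus strand.
Lbr: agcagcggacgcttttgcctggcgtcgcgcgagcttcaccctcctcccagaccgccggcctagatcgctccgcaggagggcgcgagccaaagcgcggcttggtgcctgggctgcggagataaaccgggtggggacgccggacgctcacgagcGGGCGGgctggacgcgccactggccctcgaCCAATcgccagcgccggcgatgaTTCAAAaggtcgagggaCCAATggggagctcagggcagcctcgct
Lmnb2: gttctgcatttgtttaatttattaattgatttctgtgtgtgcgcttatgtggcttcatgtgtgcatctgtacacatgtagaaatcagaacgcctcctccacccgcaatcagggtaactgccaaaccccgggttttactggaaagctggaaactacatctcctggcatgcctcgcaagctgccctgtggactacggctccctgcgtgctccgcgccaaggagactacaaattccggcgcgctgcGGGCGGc
Tmpo: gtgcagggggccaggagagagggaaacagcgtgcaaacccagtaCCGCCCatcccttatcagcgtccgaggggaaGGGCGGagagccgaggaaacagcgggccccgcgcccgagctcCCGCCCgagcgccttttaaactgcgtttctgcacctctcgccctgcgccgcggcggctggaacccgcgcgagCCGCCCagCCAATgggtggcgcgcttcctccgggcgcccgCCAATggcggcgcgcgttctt
Banf1: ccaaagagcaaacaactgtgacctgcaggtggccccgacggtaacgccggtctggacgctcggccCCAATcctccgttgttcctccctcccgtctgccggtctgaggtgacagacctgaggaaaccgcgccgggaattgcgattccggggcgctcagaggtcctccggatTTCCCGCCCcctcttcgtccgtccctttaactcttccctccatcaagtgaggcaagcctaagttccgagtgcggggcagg

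Of 32851 such windows over all genes, 17.1% held a CHR match, 33.8% a CCAAT box, 5.00% an E2F-like match and 32.7% a GC box. The shares with 2 or more matches were 10.1% for the CCAAT box, 16.7% for the GC box and 0.301% for the E2F-like element. The Lbr window had CCAAT boxes that began 68 and 28 bases before the start and a CHR match at 45 bases, with a GC box at 98. The Tmpo window had CCAAT boxes at 53 and 21 bases and 4 GC boxes. In the Banf1 window a CCAAT box lay at 185 bases, and an E2F-like match at 80 bases overlapped a GC box at 77. The Lmnb2 window held 1 GC box. Further starts of Lmnb2, Tmpo and Banf1 are not shown; of their windows, that of Tmpo held a CHR match at 28 bases and 2 E2F-like matches, that of Banf1 3 GC boxes and that of Lmnb2 no match. Sun2, which was lower in Ind-8 than in tI-3 but not than in Con-3, had a CHR match at 95 bases, CCAAT boxes at 85 and 41 and 4 GC boxes. Among the others not lower in Ind-8 than in Con-3, Sun1 had CCAAT boxes at 97 and 15 bases and 3 GC boxes in 1 window and a CCAAT box in the other, Emd a CCAAT box and a GC box, and Lmna a GC box in 1 window and a CCAAT box in the other. Such a match describes the letters only.

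**Figure D4:**
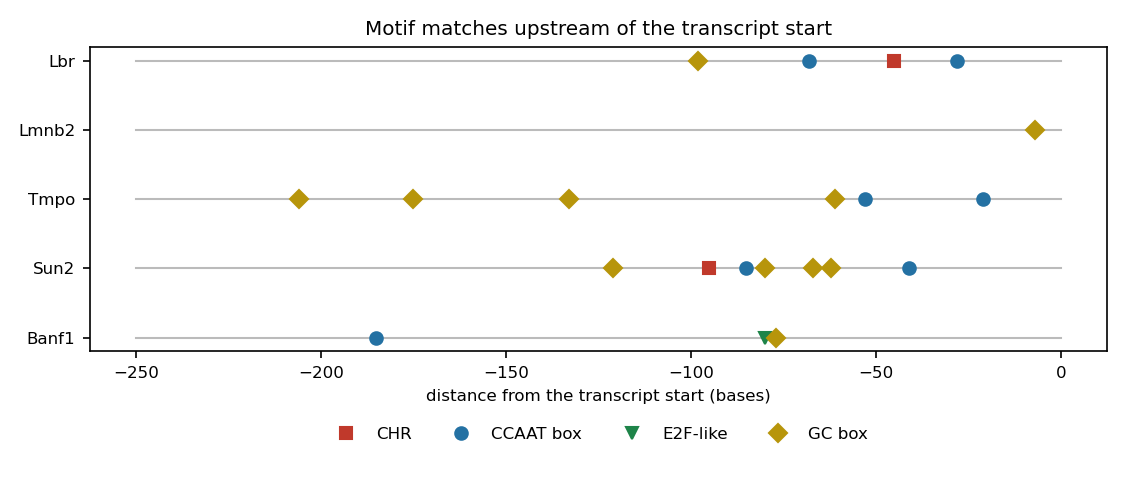
Motif matches in the 250 bases upstream of the transcript start of 5 member genes, with the distance from the start in bases on the horizontal axis; each symbol stands at the upstream end of a match. Only Lbr and Sun2 had a CHR match in the windows drawn, and the E2F-like symbol of Banf1 overlaps its GC box.

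Genes that work with the members were followed as lists, each gene by its brightest row. Of 18 nuclear envelope partners, 4 were higher and 3 lower in Ind-8 than in Con-3, beside 10.9% and 11.0% of all probe sets, with a median log2 difference of 0.04, beside −0.06 for all probe sets. Iffo1, a lamin-associated filament protein, and Tmem43, an inner membrane protein, were higher by 0.66 (adjusted p = 0.00757) and 0.51 (adjusted p = 0.0169), and Tor1b, a torsin ATPase, by 0.37 (adjusted p = 0.0119). Vrk1, the kinase that releases Banf1 from chromatin, differed by −0.69 (SE 0.09, adjusted p = 0.000776), Tmem201 by −0.46 (adjusted p = 0.0211) and Syne2, which encodes nesprin-2, by −0.38 (adjusted p = 0.0119).

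In Ind-8 against tI-3, 4 partners were higher and 2 lower, beside 15.6% and 15.5% of all probe sets, with a median of 0.25, which was 0.11 after quantile normalisation and 0.13 with the hybridization-control block. Syne3, which encodes nesprin-3, was higher by 0.69 (adjusted p = 0.0069), Tor1aip1, the lamina-binding torsin activator, by 0.66 (adjusted p = 0.00181) and Tmem43 by 0.60 (adjusted p = 0.0119). Cbx5, the heterochromatin protein that Lbr binds, differed by −0.67 (adjusted p = 0.00143) and Syne2 by −0.34 (adjusted p = 0.0272). Between tI-3 and Con-3, 1 partner was higher and 5 lower, beside 10.2% and 15.1% of all probe sets. The median was −0.16 in the main fit, −0.05 after quantile normalisation and −0.07 with the hybridization-control block. Cbx5 was higher by 0.57 (adjusted p = 0.00294), while Tmem201 differed by −0.73 (adjusted p = 0.00323), Nrm, which encodes nurim, by −0.51 (adjusted p = 0.00687) and Vrk1 by −0.48 (adjusted p = 0.00752).

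B-type lamins and prelamin A are farnesylated, trimmed and methylated at their ends. Of 6 genes linked to this maturation, 4 were lower in Ind-8 than in Con-3 and the other 2 did not pass. The list median was −0.37, and 11.0% of all probe sets were lower. Among the 4 was Narf (−0.30, adjusted p = 0.0444), a linked gene whose product carries out none of these steps. The shares over all probe sets were 15.6% higher and 15.5% lower in Ind-8 against tI-3, where 1 gene was higher and 1 lower, and 15.1% lower in tI-3 against Con-3, where 2 were lower. Fntb, a farnesyltransferase subunit, differed by −0.56 (adjusted p = 0.0202), Rce1, a protease that removes the last residues, by −0.47 (adjusted p = 0.00504) and Zmpste24, which cleaves prelamin A, by −0.35 (adjusted p = 0.025). Rce1 was also lower in Ind-8 than in tI-3 (−0.47, adjusted p = 0.00785), where Fnta, the other farnesyltransferase subunit, was higher (0.31, adjusted p = 0.0367) and the list median was −0.05. Zmpste24 (−0.48, adjusted p = 0.00876) and Fnta (−0.38, adjusted p = 0.0177) were lower in tI-3 than in Con-3, with a median of −0.40.

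Nuclear pores are anchored in the lamina. Of 28 pore genes, 16 were lower and 1 higher in Ind-8 than in Con-3, beside 11.0% and 10.9% of all probe sets, with a median of −0.34. Nup85 differed by −0.87 (SE 0.09, adjusted p = 0.000196), Nup43 by −0.86 (adjusted p = 0.000328) and Ndc1 by −0.71 (adjusted p = 0.000707), the first pair being scaffold subunits and Ndc1 a membrane anchor. Aaas was the gene with a higher level (0.47, adjusted p = 0.00844). In tI-3 against Con-3, 11 were lower and 1 higher, beside 15.1% and 10.2% of all probe sets, with a median of −0.27, and Nup43 (−0.99, adjusted p = 0.000243), Sec13 (−0.85, adjusted p = 0.000507) and Nup37 (−0.76, adjusted p = 0.00038) had the lowest values. In Ind-8 against tI-3, 4 were higher and 4 lower, with a median of −0.08. In the main fit these shares are close to the 15.6% and 15.5% called over all probe sets. After quantile normalisation 3 were higher and 10 lower, with a median of −0.17. Of all 22523 probe sets, 2734 were then higher and 3005 lower. In the main fit of this comparison Seh1l differed by −1.15 (adjusted p = 7.12e-05), Nup205 by −0.53 (adjusted p = 0.0185) and Nup85 by −0.38 (adjusted p = 0.0226). Aaas (0.88, adjusted p = 0.000543), Sec13 (0.75, adjusted p = 0.00115) and Ranbp2 (0.52, adjusted p = 0.00951) were higher. Seh1l was the gene that was higher in tI-3 than in Con-3 (0.65, adjusted p = 0.00133), so its means had the same order of lines as those of Lmnb1.

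Of 20 proliferation genes, 17 were lower in Ind-8 than in Con-3 and the other 3 did not pass, beside 11.0% of all probe sets lower, with a median of −0.51. Birc5, which encodes the mitotic protein survivin, differed by −1.06 (SE 0.10, adjusted p = 0.00011), Mcm5 of the replicative helicase by −0.86 (adjusted p = 0.000254) and Ccna2, cyclin A2, by −0.71 (adjusted p = 0.000536). In Ind-8 against tI-3, 11 were lower, beside 15.5% of all probe sets, with a median of −0.40, led by Ccna2 (−0.69, adjusted p = 0.00107), Birc5 (−0.67, adjusted p = 0.00239) and Tyms, thymidylate synthase (−0.61, adjusted p = 0.014). Of the same genes, 4 were lower in tI-3 than in Con-3, beside 15.1% of all probe sets, with a median of −0.03, the lowest being Mcm5 (−0.75, adjusted p = 0.000849), Ccnb2 (−0.65, adjusted p = 0.000903) and Cdk1 (−0.60, adjusted p = 0.00199). How far the cycling state of the cultures enters the lamina differences was not tested.

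Of 14 senescence-linked genes, 5 were higher and 1 lower in Ind-8 than in Con-3, beside 10.9% and 11.0% of all probe sets, with a median of 0.17. Cdkn1a was 14.0-fold higher (3.81, SE 0.11, adjusted p = 1.91e-08), Cdkn2b, an inhibitor of the cyclin D kinases, 1.95-fold (0.97, adjusted p = 0.00109) and Mmp3, a secreted protease, 1.66-fold (0.73, adjusted p = 0.0484). The study scored Cdkn1a as absent in Con-3 (SYM), so its differences from Con-3, here and below, are lower bounds. Hmgb2, a chromatin protein, differed by −0.63 (adjusted p = 0.03). In Ind-8 against tI-3, 6 were higher and 4 lower, beside 15.6% and 15.5% of all probe sets, with a median of 0.23. Igfbp7, a secreted growth factor binding protein (2.91, adjusted p = 1.44e-05), Cdkn1a (2.22, adjusted p = 3.58e-06) and Cdkn2a (1.51, adjusted p = 0.00127) were higher. The secreted factors Ccl2 (−1.59, adjusted p = 0.00121), Mmp3 (−1.40, adjusted p = 0.00379) and Cxcl1 (−0.91, adjusted p = 0.00408) were lower. Compared with Con-3, tI-3 had 5 higher and 2 lower genes, beside 10.2% and 15.1% of all probe sets, with a median of −0.02. The higher ones included Mmp3 (2.13, adjusted p = 0.00034), Cdkn1a (1.59 as a lower bound, adjusted p = 1.93e-05) and Ccl2 (1.36, adjusted p = 0.00237). Igfbp7 (−3.29, adjusted p = 4.48e-06) and Cdkn2a (−0.81, adjusted p = 0.025) were lower.

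Many list counts changed when 1 array was left out. Without Con-3 replicate 3, Con-3 replicate 2 or Ind-8 replicate 2, the proliferation median of Ind-8 against Con-3 was −0.50, −0.50 or −0.44. It was −0.51 in the main fit, and 17 of these genes had lower levels with an unadjusted limma p under 0.05 each time. The maturation median was −0.35, −0.32 or −0.35, against −0.37, and the pore median −0.32, −0.33 or −0.31, against −0.34. The senescence-linked median was 0.11, 0.15 or 0.11, against 0.17. Without Con-3 replicate 3, the array with the high 18S control, Ind-8 against Con-3 gave 13 lower proliferation genes, 14 lower pore genes, 1 lower maturation gene, 2 higher partners and 3 higher senescence-linked genes. Without Con-3 replicate 2 there were 14 lower proliferation genes, 12 lower pore genes, 1 lower maturation gene and 3 higher senescence-linked genes. Without Ind-8 replicate 2 there were 13 lower proliferation genes, 11 lower pore genes, 2 lower maturation genes, 2 higher partners and 3 higher senescence-linked genes, and without Ind-8 replicate 3 there were 2 lower maturation genes. The Hmgb2 call was lost without Ind-8 replicate 2 (−0.59) or 3 (−0.57) and without Con-3 replicate 1 (−0.41), against −0.63 in the main fit. That of Mmp3 was kept in 9 of 16 alternatives and lost without Ind-8 replicate 1 (adjusted p = 0.117) or 2 (0.176) and without Con-3 replicate 2 (0.15) or 3 (0.138). Others kept in 12 or fewer were Tmem43 and Fntb (11 each) and Tmem201 and Zmpste24 (12 each); in Ind-8 against tI-3 they were Fnta (7), Nup205 (11), Syne2 and Nup85 (12 each), and in tI-3 against Con-3 Cdkn2a (11) and Fnta (12).

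For Ind-8 against tI-3 the lower proliferation genes numbered 4 without tI-3 replicate 1 and 6 without tI-3 replicate 2. With the hybridization-control block limma called none of them at an adjusted p under 0.05, where 6 had an unadjusted p under 0.05 and lower levels and the list median was −0.31, against −0.40 in the main fit. No partner passed with the block either, and 1 pore gene was higher and 1 lower, with 2 higher senescence-linked genes. The lower senescence-linked genes fell from 4 to 0 by limma with the block, where 3 had an unadjusted p under 0.05, and the list median fell from 0.23 to 0.05. Among named genes the block also ended the calls of Cdkn2a (1.40, adjusted p = 0.0975), Fnta (0.42, adjusted p = 0.195), Rce1 (−0.37, adjusted p = 0.292), Ccl2 (−1.38, adjusted p = 0.106), Mmp3 (−1.58, adjusted p = 0.1) and Cxcl1 (−0.87, adjusted p = 0.16). It ended those of the pore genes Aaas (0.86, adjusted p = 0.0518), Ranbp2 (0.27, adjusted p = 0.456), Nup205 (−0.35, adjusted p = 0.459) and Nup85 (−0.24, adjusted p = 0.488) too. The lower pore genes numbered 2 without Ind-8 replicate 1, 1 without Ind-8 replicate 2 and 10 after quantile normalisation. In the last setting 3005 of 22523 probe sets were lower. The pore median was −0.03 without tI-3 replicate 1 and −0.12 without tI-3 replicate 2. Without tI-3 replicate 2 there were 2 higher pore genes and 2 higher partners, and the lower partners numbered 1 without either tI-3 array or Ind-8 replicate 3. The Fnta call was also lost without any single Ind-8 or tI-3 array, without Con-3 replicate 2, with the replicate number as a block (0.28, adjusted p = 0.0596) and after quantile normalisation (0.17, adjusted p = 0.233).

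For tI-3 against Con-3 the lower pore genes numbered 5 without tI-3 replicate 2 and 6 with the block, and the lower partners 3 without either tI-3 array and 1 with the block. Of the maturation genes lower there, 1 was left without Con-3 replicate 2 or tI-3 replicate 2 and neither without tI-3 replicate 1; 4 were called with the 2 compared lines alone, 3 without Ind-8 replicate 1 or 2, 2 with the block and 1 after quantile normalisation. Of the senescence-linked genes lower there, 1 was left without Con-3 replicate 1 or tI-3 replicate 2 and after quantile normalisation. With the block 3 of these genes were higher and 1 lower, with a median of 0.06, and 3 proliferation genes were lower. After quantile normalisation the proliferation median was 0.09, with 1 higher and 3 lower genes. The block ended the calls of Nrm (−0.41, adjusted p = 0.0976), Vrk1 (−0.46, adjusted p = 0.0681) and Cdkn2a (−0.74, adjusted p = 0.169).

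**Figure D5:**
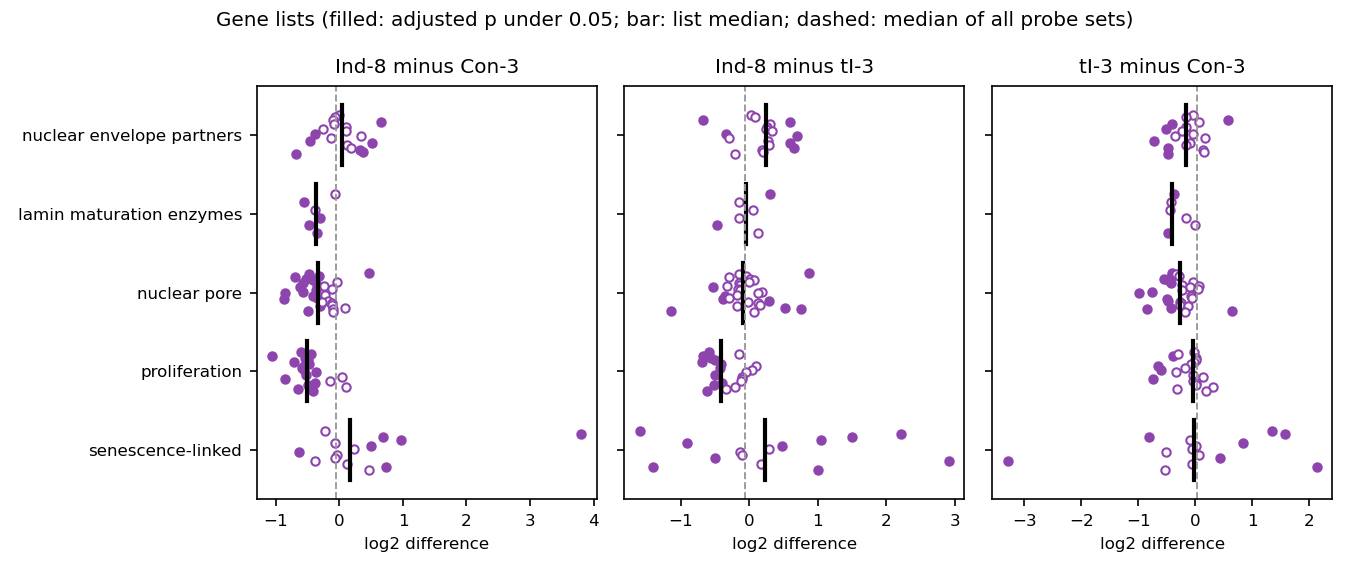
Log2 difference of each list gene (horizontal axis, 1 point per gene) in the 3 comparisons, by list; filled points have an adjusted p under 0.05 by limma, bars are list medians and the dashed line is the median of all probe sets. In Ind-8 against Con-3 the proliferation median was −0.51 and the pore median −0.34.

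The genes whose values followed Lmnb1 most closely over the 8 arrays were sought among 12273 rows above the 25th percentile of mean level. Pearson's r, given as a description over arrays that fall into 3 lines, was highest for Cndp2, a peptidase (0.992), Sf3b2, a splicing factor (0.990), Wdr55 (0.989), Ss18, a chromatin remodelling subunit (0.985), and Cxxc1 (0.984). Afg3l2, Igsf1, Nars, Rbm22 and Txndc8 followed, down to 0.977. Of these, Txndc8 read only 4.39 to 4.88 and Igsf1 5.10 to 5.79, toward the dim end of the array. Whether the differing 25th percentiles of the arrays enter the likeness of such dim rows was not tested. Ss18 had log2 differences close to those of Lmnb1 itself, −0.68 in Ind-8 against Con-3, −1.34 in Ind-8 against tI-3 and 0.66 in tI-3 against Con-3. Within the family, r with Lmnb1 was 0.915 and 0.924 for the Banf1 rows, 0.770 for Sun1, and −0.803 and −0.830 for the lamin C and lamin A rows of Lmna. For Lmnb2 it was 0.240, for Lbr 0.342, for Sun2 0.374, for the alpha and beta-type rows of Tmpo 0.435 and 0.523, and for Emd −0.455.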

How the data were processed

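Gene expression was read from 8 mouse Affymetrix arrays, 3 of Ind-8, 3 of Con-3 and 2 of tI-3, grouped by their sample labels. The values that the authors deposited are log2 RMA summaries, 1 per RefSeq transcript. RMA had already normalized the arrays, so a shift common to every transcript of an array cannot be seen. No further normalization was applied in the main tests. Setting aside 64 Affymetrix controls left 22523 of 22587 probe sets; 81.2% of these were named through a RefSeq table of GRCm38.p6, used for names and for promoter windows. The number of arrays limits the precision.

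Each line was given 1 mean in limma 3.58.1 (R 4.3.3), with the default prior and Benjamini-Hochberg adjustment. The rank product test was re-implemented, with 100 permutations inside each array. Summaries, exact permutation tests and figures used Python 3.11.15, numpy 2.4.6, scipy 1.17.1, pandas 2.3.3 and matplotlib 3.10.9. Both many-gene tests were tested on simulated data.

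Genes were named by a rule. It takes every distinct member row, up to 3 highest and 3 lowest called differences of each list in each comparison, the label checks, and the 10 genes most like Lmnb1. Among the cell-type markers Kdr, Vim, Fn1, Col3a1 and Postn were named as examples after their values were seen. Narf was named outside the rule. The members and lists were chosen with earlier results of these data known. Alternatives were the compared lines alone, a block for the replicate number or for the hybridization-control level, a trend in the prior, a filter at the 25th percentile, arrays quantile-normalised or median-centred again, distinct rows only, each array left out, the other Lmna row, and for the rank product a pfp under 0.01, another seed and limma in its place.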

Additional observations from a re-analysis of the deposited data

How the results depend on the processing

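Deviations of same-numbered arrays of different lines from their line means correlated at −0.225 to 0.381. Differently numbered arrays were not compared in this way, so whether the replicate numbers of the labels pair the arrays was not tested. With the number as a replicate block, 9, 7 and 8 member rows were called in Ind-8 against Con-3, Ind-8 against tI-3 and tI-3 against Con-3, where Sun2 lost its call against tI-3, and 5382, 8341 and 6376 probe sets in all. With the hybridization-control block the members called were 9, 3 and 4 and the probe sets 3650, 708 and 3066, against 4942, 7009 and 5715 without it. Leaving out 1 array at a time gave 9 to 9, 4 to 8 and 4 to 8 called members, and 3493 to 4637, 2781 to 7261 and 3093 to 5625 called probe sets. By the rank product, leaving out 1 array gave 0 to 1 called member in each comparison with Ind-8, and a pfp under 0.01 gave 0 in each, whereas 9, 4 and 5 members had an unadjusted p under 0.05 at the full number of arrays. limma in its place called 9, 8 and 8. The log2 difference of Lmnb1 minus Lmna between lines moved to −1.42 and −2.08 for Ind-8 against Con-3 and tI-3 with the lamin A row in place of the lamin C row.

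Of 576 member differences under alternatives, 528 kept their direction and side of the threshold, 34 lost the call, 4 gained it and 10 changed sign, all of the last in differences that had not passed. Sun1 in Ind-8 against Con-3 became 0.0087 with the hybridization-control block and without Con-3 replicate 3 and 0.0169 without Ind-8 replicate 1; it ranged from −0.0417 without Ind-8 replicate 2 to the last value over single arrays left out. Lmnb2 in Ind-8 against tI-3 became 0.0366 with the block and 0.0756 without Ind-8 replicate 2, and −0.0972 without Ind-8 replicate 3. In tI-3 against Con-3 the lamin A row became 0.0896 after quantile normalisation, 0.0022 without Con-3 replicate 2, 0.0494 without tI-3 replicate 1 and −0.0914 without tI-3 replicate 2. The lamin C row became −0.0004 with the block, −0.0026 without Con-3 replicate 1 and 0.037 without Con-3 replicate 2. The causes were not tested. With a tI-3 array left out, the lone array is assumed to vary like those of the other lines. Signal toward the dim end of the array limits genes such as Trp53, Mmp3, Igsf1 and Txndc8 and the markers of other cell types more than the members. The lowest member, Lmnb2, lay at percentile 62.9 of mean level.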
